A study of Homo sapiens with 3 samples.

Results

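The genes described here encode 3 families of enzymes that oxidise alcohols and aldehydes or reduce carbonyl groups, the alcohol dehydrogenases (ADH), the aldehyde dehydrogenases (ALDH) and the aldo-keto reductases (AKR). They were chosen by symbol alone, as every gene row named ADH with a digit from 1 to 7 and an optional letter, ALDH with a number, a letter and a number, or AKR with the same pattern. This gave 37 genes, with 7 ADH, 18 ALDH and 12 AKR members, among the 39320 rows on the main reference sequences, leaving out alternate and unplaced ones. ALDH2, the mitochondrial enzyme that oxidises acetaldehyde, has a symbol of another form and is given only as a neighbour of the set.

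The 3 libraries are labelled as polyA RNA of HepG2, an established human liver cancer line, replicates 1 to 3. The genotype is given as WT and no treatment is named. The labels give 1 condition, so every value below is a level and no change between conditions was measured. Nothing in the labels says that the replicates came from separate cultures, so the spread between them may be technical. Levels are in TPM, a unit that the authors scaled for gene length and to the same total in each library.

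Alcohol dehydrogenases turn alcohols into aldehydes, and aldehyde dehydrogenases turn aldehydes into acids, so that both families act in series on ethanol and retinol. Aldo-keto reductases use NADPH to reduce aldehydes and ketones of sugars, lipids, steroids and prostaglandins. Liver is the main site of ethanol oxidation, and hepatocytes are known for high levels of the class I ADH enzymes, ADH4, ALDH1A1, ALDH1L1, AKR1C4 and AKR1D1.

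The hepatocyte identity that the label implies was not seen in secreted protein genes. A list of 20 hepatocyte products held 18 genes that stayed below 1 TPM throughout, of which 12 were at 0 in each replicate, ALB among them, and it summed to between 34.2 and 36.1 TPM per library. The other 2, VTN and RBP4, had 23.3 ± 0.560 and 11.0 ± 0.508 TPM (SD, n = 3) and carried most of that sum. AFP, a fetal liver protein that HepG2 is known for, had 0, 0.0239 and 0.0248 TPM. Of 8 epithelial genes, 3 reached 1 TPM in all 3 libraries, with list sums of 4573 to 4831 TPM, mostly from KRT8 (2610 TPM) and KRT18 (2017 TPM), and ESRP1 at 0. Of 8 mesenchymal genes, 5 did, with sums of 711 to 804 TPM, mostly from VIM (694 TPM), and SPARC at 0. Of 8 blood genes, 0 did, with sums of 1.84 to 2.42 TPM and PTPRC, CD3E and LYZ at 0. All 12 housekeeping genes of a short list did. The HepG2 label is thus in doubt, and the levels below are those of the cells as labelled. The part that the identity of the cells plays in these levels was not tested. In bulk RNA, fewer cells of a type and less RNA per cell cannot be told apart.

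At least 1 TPM in all 3 libraries was reached by 20 of the 37 genes, or 54.1%. The same was true of 33.8% of all rows and of 59.5% of the rows of protein-coding genes, so the share of the members was near that of coding genes. The 59.5% is also the share to set beside the counts of listed partner genes given below, which were not tested against it. By family, 13 of 18 ALDH genes, 6 of 12 AKR genes and 1 of 7 ADH genes reached this level. A further 2 genes, AKR7A3 and AKR1C1, crossed 1 TPM in some libraries only. The other 15 were below 1 TPM in every library, and 8 of them were listed at 0 in all 3. These 8 were ADH1A, ADH1B, ADH4, ADH6, ADH7, ALDH1A1, ALDH1L1 and AKR1B15. The share of all rows listed at 0 in all 3 libraries was not computed, so whether 8 of 37 is many is unknown. The tables hold no counts, so the lowest level that the reads could show is unknown and a listed 0 does not exclude RNA.

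**Figure D1:**
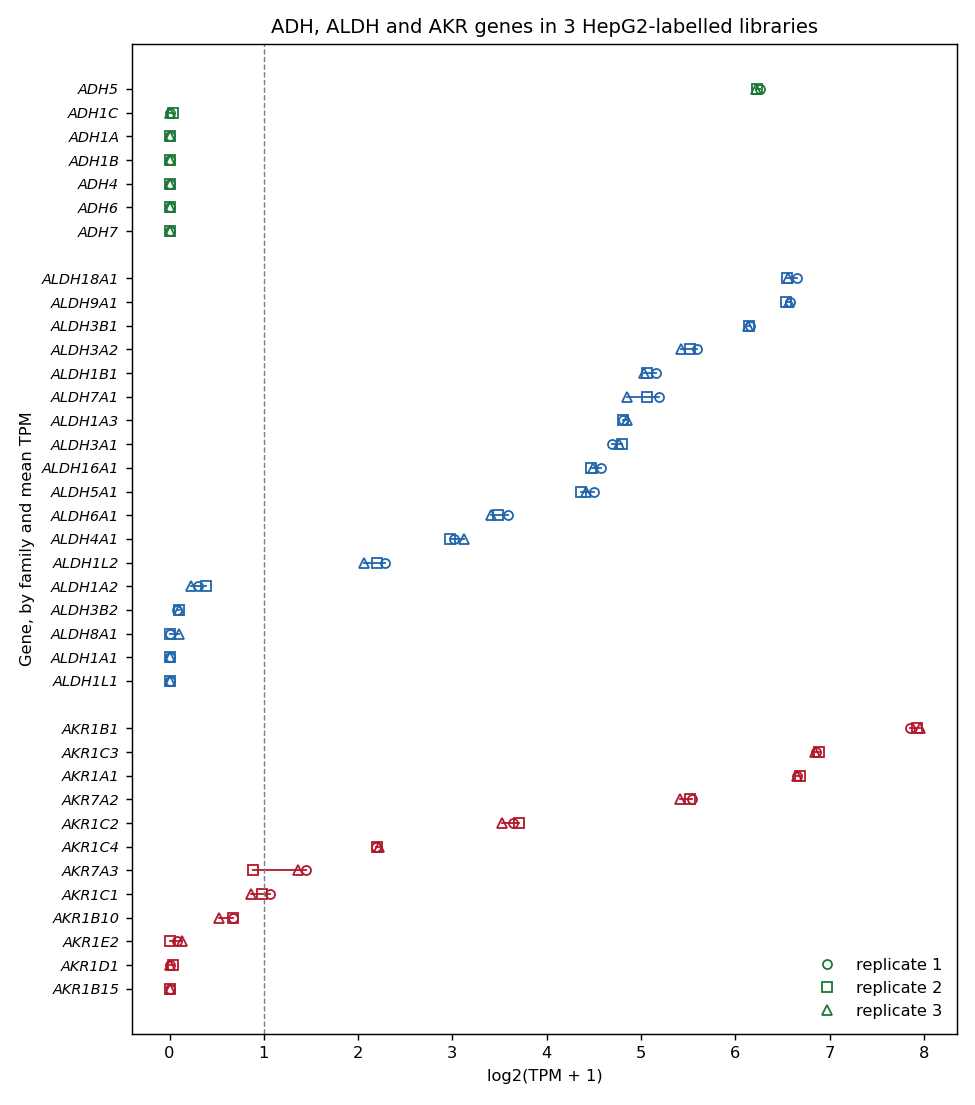
The level of each of the 37 genes in each library, as log2(TPM + 1) on the horizontal axis, with circles, squares and triangles for replicates 1, 2 and 3, a line over their range and colours for the ADH (green), ALDH (blue) and AKR (red) families. The dashed line marks 1 TPM, and ADH5 is the only ADH gene to its right, against 13 ALDH genes and 6 AKR genes with all 3 symbols to its right.

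The AKR genes together had 507, 524 and 520 TPM in replicates 1, 2 and 3, a mean of 517 ± 8.57 TPM (SD, n = 3). The 18 ALDH genes had 501, 480 and 474 TPM, a mean of 485 ± 13.8 TPM (SD, n = 3). The AKR sum was above the ALDH sum in each library, although the lowest AKR value lay just over the highest ALDH value. By coverage, the mean read depth over a gene that the authors also deposited, the order was turned, with sums of 1673 ± 115 for AKR and 2216 ± 194 for ALDH (SD, n = 3). The ADH genes had 75.8, 74.2 and 73.5 TPM, a mean of 74.5 ± 1.20 TPM (SD, n = 3). All 37 genes together made up 0.108% of all TPM.

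Each family was spread over its members in its own way. ADH5 held 99.99% ± 0.0222 of the ADH sum (SD, n = 3). AKR1B1 held 46.3% ± 1.23 of the AKR sum, AKR1C3 22.3% ± 0.333 and AKR1A1 19.4% ± 0.263 (SD, n = 3). By coverage the order of the last pair turned, with 12.7% ± 0.105 for AKR1C3 and 27.3% ± 0.413 for AKR1A1 (SD, n = 3). In the ALDH family no gene exceeded 20% of the TPM, and ALDH18A1 with 19.6% ± 0.288 and ALDH9A1 with 19.3% ± 0.497 (SD, n = 3) were level. By coverage ALDH9A1 was first with 24.1% ± 0.481 (SD, n = 3).

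**Figure D2:**
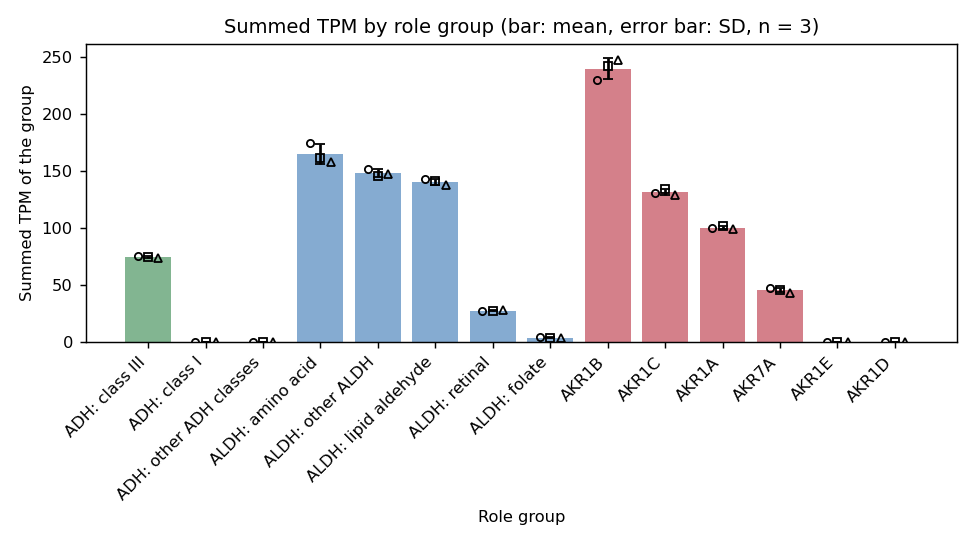
Summed TPM of 14 groups of members by the role of the enzymes, with bars for the mean, error bars for the SD over 3 libraries and symbols for replicates 1 (circle), 2 (square) and 3 (triangle). AKR1B is the highest group on this scale at 239.9 TPM (by coverage it has 711, under 861 for the amino acid group and 732 for other ALDH), the amino acid, other and lipid aldehyde groups of ALDH lie between 141 and 165 TPM, and class I ADH, the other ADH classes, AKR1E and AKR1D are near 0.

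ADH5, class III alcohol dehydrogenase, oxidises the adduct of formaldehyde with glutathione and is found in all tissues. It had 75.8, 74.2 and 73.5 TPM in replicates 1, 2 and 3, or 74.5 ± 1.20 TPM (SD, n = 3). The 3 libraries differed little, with a coefficient of variation (CV, the SD as a percent of the mean) of 1.61%. It exceeded 85.2% of the rows with a mean of at least 1 TPM. ESD, which completes the formaldehyde route by hydrolysing the product of ADH5, had 80.7 ± 1.85 TPM (SD, n = 3) and was above ADH5 in each library.

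The class I genes ADH1A, ADH1B and ADH1C, whose products oxidise ethanol in liver, were at or near 0. ADH1A and ADH1B were listed at 0 in all 3 libraries, and ADH1C was at 0, 0.0285 and 0 TPM in replicates 1, 2 and 3. ADH4 (class II), ADH6 (class V) and ADH7 (class IV, a retinol-oxidising enzyme of the upper digestive tract) were listed at 0 throughout. Since ADH6 was at 0 in every library and ADH1C in 2 of 3, no fold against them is given. ADH5 was above both in 3 of 3 libraries.

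All 7 ADH genes lie head to tail on the minus strand of chromosome 4 in GRCh38, within 364533 bp from 99070978 to 99435510. ADH5 is at one end (99070978 to 99088788), and ADH4, the next gene, begins 34868 bp away. The gene with a clear level and the 6 without one thus share a single cluster. The coding sequences of ADH1B and ADH1C in GENCODE v44 are 95.7% identical, and 21 of the 979 windows of 150 bases (the read length) in each are found in the other without a mismatch. None of the 976 windows in the coding sequence of ADH5 occurs in another gene, and untranslated parts were not examined.

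**Figure D3:**
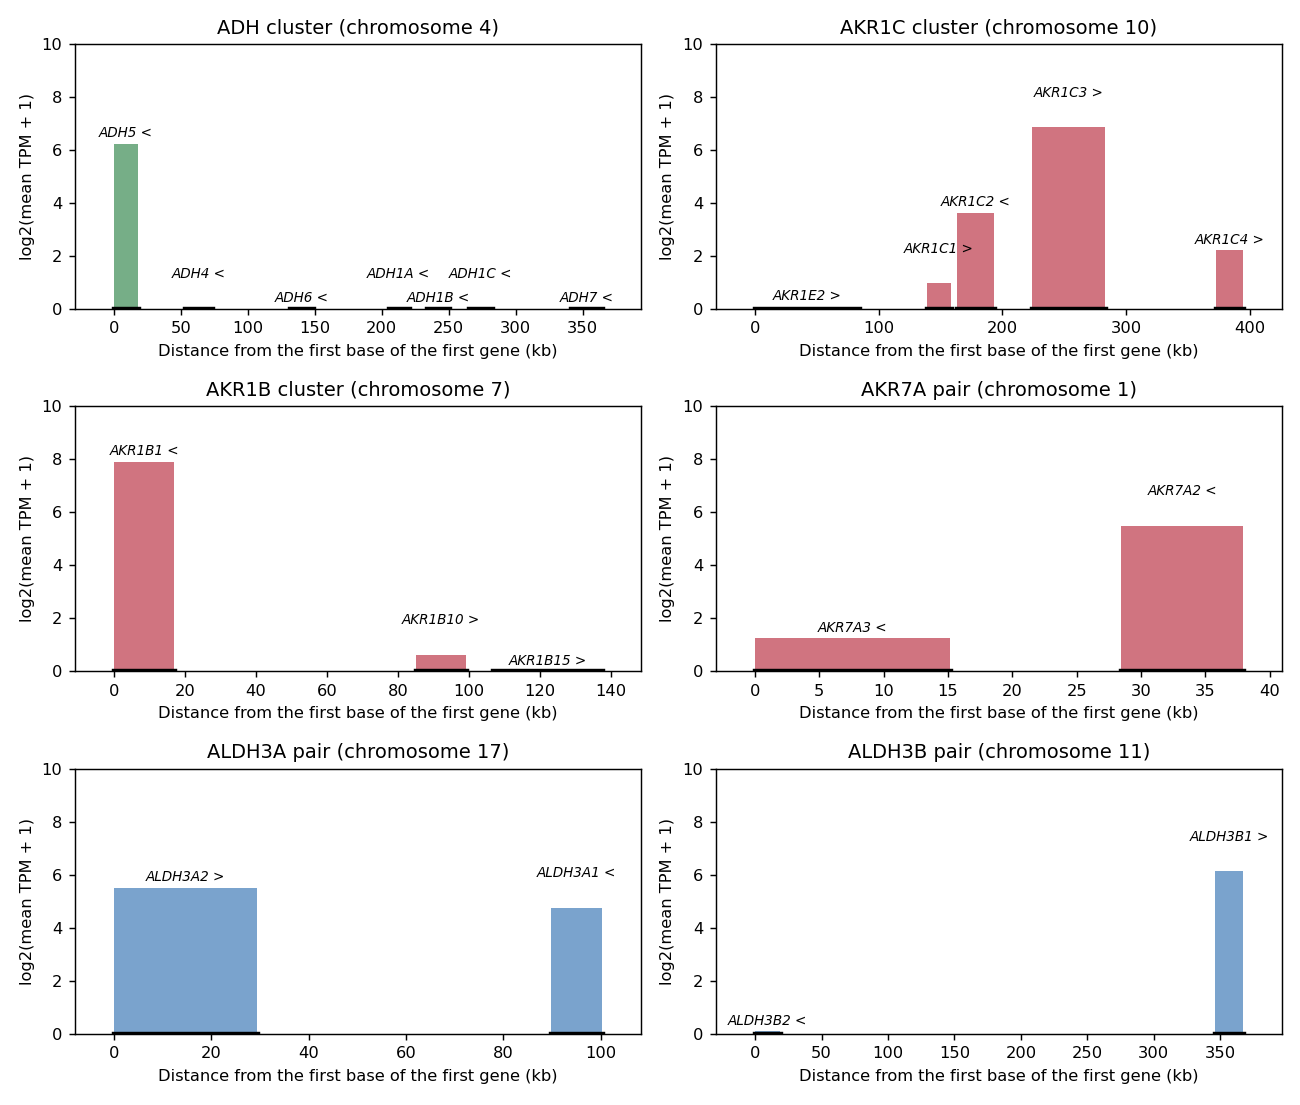
Levels along 6 groups of neighbouring members, with the distance from the first base of the first gene in kb on the horizontal axis and log2(mean TPM + 1) over 3 libraries as bar height. Bar width and the black line give the gene's span, and > or < its strand. In each panel 1 gene stands far above at least one neighbour, except for ALDH3A2 and ALDH3A1, which are within 1 unit of each other.

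The remaining steps of ethanol oxidation were present in part. ALDH2 had 24.4, 28.3 and 28.8 TPM, a mean of 27.2 ± 2.44 TPM (SD, n = 3). ALDH1B1, its mitochondrial relative that also takes acetaldehyde, had 34.6, 32.5 and 31.7 TPM, and ALDH1A1, the cytosolic enzyme, was at 0 throughout. Of the 5 listed genes for ethanol and acetate, CAT (53.5 ± 1.79 TPM), ALDH2 and ACSS2 (19.5 ± 0.290 TPM) were above 1 TPM in every library (SD, n = 3). CYP2E1, the ethanol-oxidising cytochrome, had 0.664, 1.20 and 1.03 TPM and straddled 1 TPM.

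ALDH18A1 makes pyrroline-5-carboxylate, the precursor of proline and ornithine. It had 99.6, 92.7 and 92.9 TPM, or 95.1 ± 3.90 TPM (SD, n = 3). ALDH4A1, which oxidises the same intermediate when proline is broken down, had 7.11, 6.86 and 7.69 TPM, or 7.22 ± 0.423 TPM (SD, n = 3). The lowest library of ALDH18A1 was far above the highest of ALDH4A1, and the ratio within libraries was 13.2 ± 0.992 (SD, n = 3). PYCR1, which finishes proline synthesis, had 107 ± 5.78 TPM, while PRODH, which starts its breakdown, had 1.30 ± 0.183 TPM (SD, n = 3) and PRODH2 was listed at 0. In all, 6 of the 8 listed proline and ornithine genes reached 1 TPM in all 3 libraries, with ODC1 highest at 230.5 ± 12.6 TPM (SD, n = 3).

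The other amino acid members were lower. ALDH7A1, which oxidises a semialdehyde of lysine breakdown and also betaine aldehyde, had 35.4, 32.5 and 27.8 TPM. Its CV of 12.1% by TPM was the largest among the 17 members with a mean of at least 10 TPM. ALDH5A1, the succinic semialdehyde dehydrogenase of GABA breakdown, had 21.6, 19.5 and 20.3 TPM. ALDH6A1, which acts in valine breakdown, had 11.1, 10.1 and 9.62 TPM. ALDH8A1, of the kynurenine route, was listed at 0 in replicates 1 and 2 and at 0.0737 TPM in replicate 3. Partner genes were counted by route, beside 59.5% of the rows of protein-coding genes that reached 1 TPM in all 3 libraries. The lists are short, and differences between routes were not tested. For valine, 9 of 10 listed genes reached 1 TPM in all 3 libraries, with ECHS1 highest at 172, 176 and 171 TPM, then DLD and BCKDHA, and BCAT1 the one below. For lysine, 3 of 4 did, with AASS, the first enzyme, at 0.141 ± 0.0557 TPM (SD, n = 3). For GABA, 1 of 3 did, GAD1 with 12.5 ± 0.608 TPM, while ABAT, which makes the substrate of ALDH5A1, had 0.128 ± 0.0209 TPM (SD, n = 3). For choline and betaine, 1 of 6 did, CHDH with 3.88 ± 0.388 TPM (SD, n = 3), and BHMT and BHMT2 were listed at 0.

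ALDH9A1, which oxidises an aldehyde of carnitine synthesis and betaine aldehyde, had 94.5, 92.2 and 94.2 TPM, or 93.6 ± 1.26 TPM (SD, n = 3). Its range overlapped that of ALDH18A1, and ALDH18A1 was the higher in 2 of 3 libraries. ALDH1B1 stood at 0.352 ± 0.0146 of the level of ALDH9A1 within libraries (SD, n = 3). ALDH16A1 had 22.8, 21.1 and 21.4 TPM. This is the member with the highest share of windows found in another annotated gene outside the AKR families, 89 of 2260, all of them in 1 GENCODE gene listed by identifier only.

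Among the lipid aldehyde enzymes, ALDH3B1 had 70.5, 69.9 and 69.2 TPM, or 69.9 ± 0.672 TPM (SD, n = 3), the smallest CV of any member with a mean of at least 1 TPM (0.962%). ALDH3B2, a relative 327322 bp away on chromosome 11, had between 0.0589 and 0.0758 TPM. ALDH3A2, the fatty aldehyde dehydrogenase of the endoplasmic reticulum, had 47.4, 44.8 and 42.1 TPM, and ALDH3A1, known for its abundance in cornea, had 24.8, 26.9 and 26.3 TPM. ALDH3A2 was above ALDH3A1 in 3 of 3 libraries by a ratio of 1.73 ± 0.161 in TPM and of 3.37 ± 0.310 in coverage (SD, n = 3).

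One of the 3 retinal dehydrogenases, which make retinoic acid, carried nearly all of their RNA. ALDH1A3 had 27.1, 27.0 and 27.8 TPM and held 99.1% ± 0.261 of the group (SD, n = 3). ALDH1A2 had 0.235, 0.307 and 0.168 TPM, and ALDH1A1 was listed at 0. Of 18 further retinoid genes, 8 reached 1 TPM in all 3 libraries and 10 were below it in all 3. RDH11, a retinal reductase, was highest with 44.7 ± 1.08 TPM, followed by DHRS4 (32.3 ± 1.78 TPM) and CYP26B1, which degrades retinoic acid, with 27.8 ± 1.05 TPM (SD, n = 3). RDH10, a retinol dehydrogenase upstream of ALDH1A3, had 23.1 ± 2.20 TPM (SD, n = 3). ALDH1A3 overlaps LOC101927751, at 2.65 TPM, on the other strand over 24284 bp of their whole spans, introns included. The strand setting is not given in the sources used here, and how reads were divided between the 2 rows was not examined. The same holds for ALDH6A1 and BBOF1, which had 2.51 TPM, and for ALDH5A1 and GPLD1, which had 3.41 TPM and a 264 bp overlap. AKR1C3 overlaps LOC107984198, at 0.0757 TPM, on its own strand over 33453 bp.

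The folate members were the lowest ALDH group with a level above 1 TPM. ALDH1L2, the mitochondrial 10-formyltetrahydrofolate dehydrogenase, had 3.89, 3.59 and 3.17 TPM, and ALDH1L1, the cytosolic enzyme, was listed at 0 in all 3. The other folate enzymes were much higher, with 13 of 14 listed genes at 1 TPM or more in all 3 libraries and a median of 51.0 TPM. SHMT2, MTHFD1 and TYMS had 224 ± 3.35, 175 ± 5.35 and 103 ± 4.89 TPM (SD, n = 3). FTCD, a liver enzyme of histidine breakdown, was the one below 1 TPM.

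AKR1B1, the aldose reductase that turns glucose into sorbitol, had the highest level of all 37 genes by TPM and by coverage. It had 229, 241 and 247 TPM, or 239 ± 9.32 TPM (SD, n = 3), and exceeded 96.0% of the rows with a mean of at least 1 TPM. AKR1B10, a retinal and lipid aldehyde reductase often raised in liver tumours, had 0.598, 0.6001 and 0.440 TPM, and AKR1B15 was listed at 0. AKR1B1 was above AKR1B10 by 7.28 ± 0.13 on the log2(TPM + 1) scale (SD, n = 3), a scale that understates the difference for a gene this low. These genes lie within 137520 bp on chromosome 7, AKR1B1 on the minus strand (134442350 to 134459239) and the others on the plus strand. SORD, which takes sorbitol on to fructose, had 58.0 ± 3.69 TPM, and all 4 listed polyol and methylglyoxal genes reached 1 TPM in every library, with GLO1 highest at 133 ± 7.02 TPM (SD, n = 3).

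AKR1A1, the broad-range aldehyde reductase, had 99.8, 102 and 99.5 TPM, or 100.4 ± 1.30 TPM (SD, n = 3). AKR7A2, which reduces succinic semialdehyde and aflatoxin dialdehyde, had 45.5, 44.8 and 41.7 TPM. Its neighbour AKR7A3 had 1.72, 0.853 and 1.57 TPM, and replicate 2 alone lay below 1 TPM. Its CV of 33.5% was the largest of the 21 members with a mean of at least 1 TPM. AKR7A2 was higher in 3 of 3 libraries, by 4.26 ± 0.32 on the log2(TPM + 1) scale (SD, n = 3). AKR7A3 shares 15 of its 847 windows with AKR7L, the adjoining gene, so reads of both could have been assigned to either. AKR1E2, a reductase of anhydrofructose, had between 0 and 0.0967 TPM.

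The 4 AKR1C enzymes are hydroxysteroid dehydrogenases that lie with AKR1E2 within 394396 bp on chromosome 10. AKR1C3, which makes testosterone and prostaglandin F, had 114, 118 and 114 TPM, or 115 ± 1.97 TPM (SD, n = 3). AKR1C2, which inactivates dihydrotestosterone, had 11.5, 12.03 and 10.5 TPM, and AKR1C1, which inactivates progesterone, had 1.09, 0.979 and 0.825 TPM. AKR1C4, the form typical of liver, had 3.55, 3.60 and 3.67 TPM. The order AKR1C3, AKR1C2, AKR1C4 and AKR1C1 held in every library, and no ranges overlapped. AKR1C3 held 87.9% ± 0.422 of the sum of the 4 genes (SD, n = 3). AKR1C3 exceeded AKR1C4 by a ratio of 32.0 ± 0.803 in TPM but 9.85 ± 0.228 in coverage, and AKR1C1 was at 0.0849 ± 0.00885 of AKR1C2 (SD, n = 3).

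These genes are close copies, which may matter for how reads were divided among them. The coding sequences of AKR1C1 and AKR1C2 differ at 19 of 972 bases (98.0% identical), and those of AKR1C1 and AKR1C3 at 83. AKR1C2 holds 63 windows of 150 bases, of 823, that occur unchanged in another gene, 41 of them in AKR1C1, and AKR1C3 shares 22 of its windows with AKR1C2. The stretch shown, bases 111 to 140 of each coding sequence in GENCODE v44, is the one of 30 bases in which AKR1C1 and AKR1C2 differ most. Capitals mark bases that differ from AKR1C3.
AKR1C1: cacCaaattGgcaatTgaagctggCttccg
AKR1C2: cGTCaaattGgcaatagaagcCgggttccA
AKR1C3: cacaaaattagcaatagaagctgggttccg
AKR1C4: cacCaaattagcaatagaagctggCttccg
Even here AKR1C1 and AKR1C2 differ at 6 of 30 bases, and the other bases are identical. Over the coding sequence, 4.98% of the windows of AKR1C1 and 7.65% of those of AKR1C2 occur in another gene. How reads were divided was not examined, so the levels of AKR1C1 and AKR1C2 may be less certain than the others.

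AKR1D1, the 5-beta-reductase of bile acid synthesis, was listed at 0, 0.0230 and 0 TPM. Of 11 other bile acid genes, 5 reached 1 TPM in all 3 libraries. HSD17B4, SCP2 and AMACR, which also act in peroxisomal fatty acid oxidation, were the highest of these, with 66.1 ± 0.826, 56.9 ± 6.14 and 12.3 ± 1.61 TPM (SD, n = 3). CYP7A1, the rate-limiting enzyme, had 0, 0.0169 and 0 TPM, and CYP7B1 and CYP8B1 were listed at 0. Of 12 other steroid genes, 4 reached 1 TPM in all 3 libraries. The highest were SRD5A1 (30.97 ± 1.46 TPM), STS (19.1 ± 1.58 TPM) and HSD11B2 (5.46 ± 0.781 TPM), each with its SD over 3 libraries.

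Several members, AKR1B10, AKR1C1, AKR1C2 and AKR1C3 among them, are known targets of the stress-response factor NRF2. All 26 other listed NRF2 targets reached 1 TPM in every library, against 59.5% of the rows of protein-coding genes. The list was chosen with earlier results of these data known, and those rows were not matched to it for level. Their median was 93.2 TPM. FTH1, FTL and PRDX1 were the highest with 6821 ± 343, 3191 ± 132 and 1968 ± 32.7 TPM (SD, n = 3). The AKR members of this kind thus ran from 0.546 TPM for AKR1B10 to 115 TPM for AKR1C3 beside a list that was present throughout. NFE2L2, which encodes NRF2, and KEAP1, its inhibitor, had 62.4 ± 5.69 and 36.5 ± 0.635 TPM (SD, n = 3). The activity of NRF2 was not tested.

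The order described here is that of TPM. Among the 21 members with a mean of at least 1 TPM, 8 of the 20 neighbouring pairs in the order had ranges that overlapped over the 3 libraries, and in 4 of these 8 the same gene was the higher within every library. The 8 were AKR1A1 with ALDH18A1, ALDH18A1 with ALDH9A1, ALDH3A2 with AKR7A2, ALDH1B1 with ALDH7A1, ALDH7A1 with ALDH1A3, ALDH16A1 with ALDH5A1, AKR1C2 with ALDH6A1, and AKR1C4 with ALDH1L2. The 4 with 1 sign throughout were AKR1A1 with ALDH18A1, ALDH3A2 with AKR7A2, ALDH16A1 with ALDH5A1, and AKR1C2 with ALDH6A1. Within the AKR family 0 of 6 neighbouring pairs overlapped, and within the ALDH family 4 of 12 did.

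Relations between members of like role were tested in 12 pairs by the log2 ratio within each library. Each ratio had the same sign in 3 of 3 libraries, with the first gene higher in 10 pairs. In libraries where the second gene was listed at 0 the sign could only be positive, so there it carries no information. The exact permutation test that flips signs (two-sided) gave p = 0.25 for every pair, 0.25 also after Benjamini-Hochberg adjustment over the 12, and no smaller p is possible with 3 libraries. The ratios other than those already given were 3.55 ± 0.10 for ALDH18A1 to ALDH4A1, 0.76 ± 0.13 for ALDH3A2 to ALDH3A1, 6.05 ± 0.03 for ALDH3B1 to ALDH3B2, -1.48 ± 0.06 for ALDH1B1 to ALDH9A1, -2.65 ± 0.07 for AKR1C1 to AKR1C2 and 4.66 ± 0.03 for AKR1C3 to AKR1C4, all on the log2(TPM + 1) scale (SD, n = 3). No ratio is given for ADH5 to ADH1C or ADH6, ALDH1L2 to ALDH1L1 or ALDH1A3 to ALDH1A1, whose second gene was listed at 0 in at least 2 libraries.

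Replicates differed little. The 21 members averaging 1 TPM or more had a median CV of 4.25%, against 6.12% for the 13753 rows with such a mean. Of the 21, 17 had a mean of at least 10 TPM, and the rows were not matched to them for level. A range of log2(TPM + 1) above 1 was seen in 0 of the 21, against 1.26% of those rows, and the largest was 0.55 for AKR7A3. Replicate 1 held the highest value in 13 of the 21 members and in 58.1% of those rows.

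TPM and coverage ranked several members differently. The ratio of coverage to FPKM, a deposited value proportional to TPM within a library, was taken relative to the highest ratio of any row in that library. ADH5, AKR1C4 and AKR1C1 were at 1.00, AKR1B1 at 0.497, ALDH3B1 at 0.356 and AKR1C3 at 0.308 (means of 3 libraries). For ALDH7A1 this ratio moved between libraries, at 0.732, 0.772 and 0.905 in replicates 1, 2 and 3. AKR7A2 was at 0.820, 0.754 and 0.789. AKR1C3 was second of the 37 genes by TPM and seventh by coverage, with 212 reads per base, and ALDH3B1 moved from rank 7 to rank 11. ALDH9A1, with 533 reads per base, was second by coverage. Of the 20 genes above 1 TPM throughout, 4 kept their rank, and the largest shift was 5 places. What sets this ratio was not tested.

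**Figure D4:**
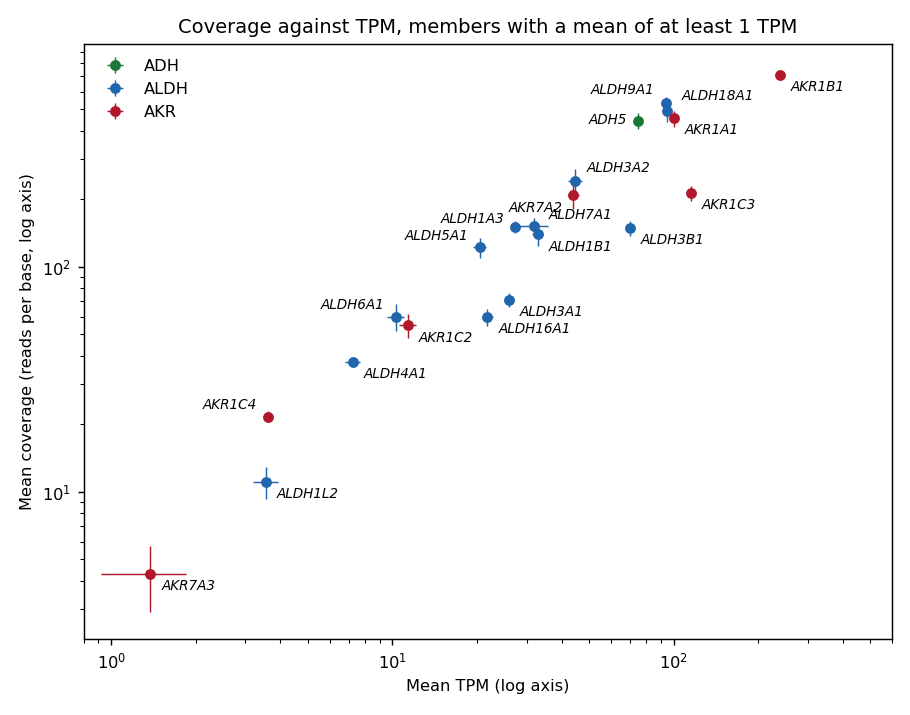
Mean coverage in reads per base against mean TPM, both on log axes, for the 21 members with a mean of at least 1 TPM, coloured by family with SD bars over 3 libraries. AKR1C3 and ALDH3B1 lie to the right of the other genes of like coverage, at 115 TPM with 212 reads per base and at 69.9 TPM with 148, while AKR1B1 is highest on both axes.

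The promoters of the members differed in CpG content, a feature that many broadly expressed genes share. A 300-base promoter (250 bases before and 50 after the start site, RefSeq, GRCh38.p14) was found for 31 of the 37 genes. It was not found for AKR1B10, AKR1B15, ALDH1L2, ALDH3A1, ALDH3B2 and ALDH16A1. Only 1 start site per gene was taken, and whether it is the one used in these cells was not tested. Its start site lay within 1000 bp of the start of the deposited row for 28 of the 31, and 17172, 14176 and 1623 bp inside the row for ALDH1L1, AKR1C2 and AKR1E2. The 17 of them that reached 1 TPM in all libraries had a median of 25 CpG dinucleotides (0 to 46), the 12 below 1 TPM had a median of 2 (1 to 41), and all 35116 promoters had a median of 14. The 6 ADH genes other than ADH5 had 1 to 6 CpG, and ADH5 had 29. The exceptions lay in both directions. AKR1C3 had 0 CpG with 115 TPM and ALDH3B1 had 4 with 69.9 TPM, while ALDH1A2 had 41 and ALDH1L1 21 with levels below 1 TPM. The AKR1C3 row spans 58921 bp, and start sites farther inside it were not examined, so its window may not be the promoter in use. The AKR1C1, AKR1C2 and AKR1C4 promoters had 3, 3 and 1. These are descriptions over genes of shared ancestry and were not tested.

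For ADH5, AKR1B1, AKR1C3 and ADH1B the 30 bases upstream of the start site taken that hold the most CpG are shown. They set a CpG-rich window of a high gene beside a CpG-poor window of a high gene and one of a gene at 0. Other start sites of these genes were not examined. Capitals mark each CpG, and sequences read 5′ to 3′ on the strand of the gene.
ADH5 (chr4:99088881-99088910, minus strand): CGgCGcCGtgcagcctCGcCGgCGagtgca
AKR1B1 (chr7:134459151-134459180, minus strand): CGCGcagCGgCGCGccaacCGcaggCGccc
AKR1C3 (chr10:5048751-5048780, plus strand): tgattttataacctgtgagggaagaagaaa
ADH1B (chr4:99321439-99321468, minus strand): CGtgtggaattggaattggatgttacacaa
The stretch of ADH5 holds 6 CpG and that of AKR1B1 7, whereas ADH1B has 1 and AKR1C3 has 0.

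**Figure D5:**
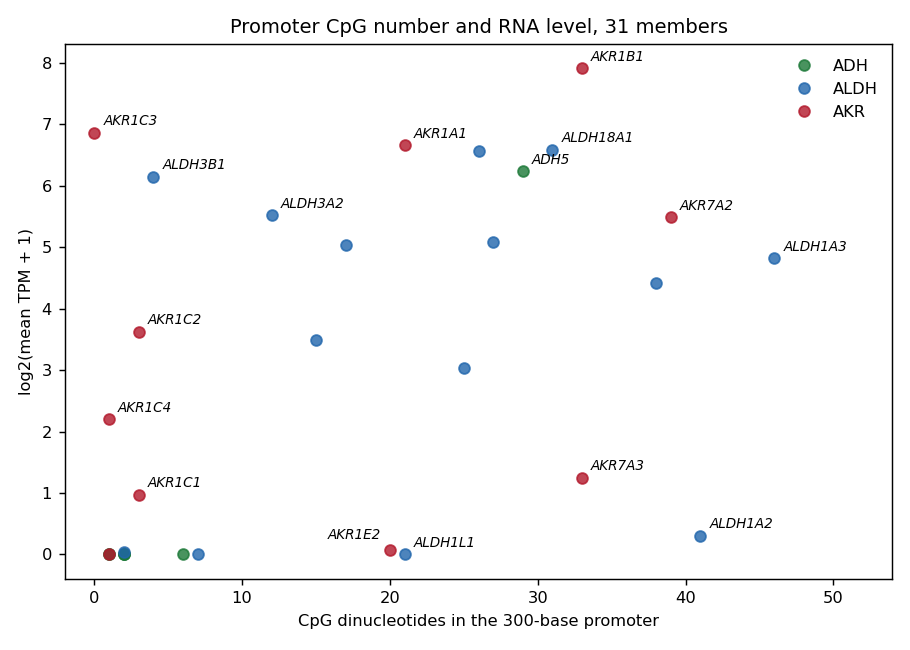
Number of CpG dinucleotides in the 300-base promoter against log2(mean TPM + 1) over 3 libraries for the 31 members with a promoter sequence, coloured by family. Most genes below 1 TPM lie at 1 to 7 CpG, AKR1C3 stands alone at 0 CpG with a high level, and ALDH1A2, ALDH1L1 and AKR1E2 have 20 CpG or more with levels near 0. Each promoter is that of 1 start site per gene, and other start sites were not examined.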

How the data were processed

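Reads (150 bp, paired) were cleaned by the authors using FastQC 0.11.8 and Trim Galore 0.6.2, then mapped to GRCh38 by STAR 2.6.1a. The submitters' processing notes also name StringTie, without a version. The annotation and strand setting are not given in the sources used here. The deposited TPM of each library sums to the same total, the deposited FPKM is proportional to it, and the deposited coverage is a signal not scaled for library size. The files used here hold no counts, so depth is unknown and no counting interval is printed. Coverage per FPKM was at most 13.3, 12.8 and 11.5 in replicates 1, 2 and 3. The mitochondrial row TRNC took 16.9% to 17.2% of all TPM in each library, which lowers all other values alike.

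Rows were joined by name, strand and position (43389 rows). TPM was used as deposited, with a pseudocount of 1 on the log2 scale. Pairs of members were compared with an exact sign-flip permutation test. Coding sequences came from the canonical transcripts of GENCODE v44 and promoters from RefSeq, with 31 of 37 members matched. The planned identity between proteins was replaced by that between coding sequences. The range calculation was tested on simulated data. The genes named are all members, the 3 highest of each partner list and enzymes next to a member in its route, except for items that are not reported here. Other partner genes named near 0 or as the one below 1 TPM, and the markers other than ALB and AFP, were chosen after their values were seen. Members and lists were chosen with earlier results of these data known. Python 3.11.15, numpy 2.4.6, pandas 2.3.3 and Biopython 1.88 were used.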

Additional observations from a re-analysis of the deposited data

How the results depend on the processing

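No paired analysis was possible because only 1 condition was sequenced and no groups could be paired by replicate number. All 84 alternative values of the 12 pair ratios kept their direction (pseudocount 0.1, FPKM, coverage, median-of-ratios scaling, each replicate left out). For pairs whose second gene was listed at 0 in all 3 libraries this direction was fixed in advance, and for ADH5 to ADH1C nearly so. By coverage the ratio of ALDH3B1 to ALDH3B2 was 376 in place of 1039, and no p could fall below 0.25 with 3 libraries or 0.5 with 2. The number of members at 1 TPM or more was 20 and stayed between 16 (minimum of 10 TPM) and 24 (minimum of 0.1 TPM). No alternative gave a member with a range above 1. Family sums moved with the scale: for ADH, ALDH and AKR they were 93.2, 607 and 647 TPM without mitochondrially encoded genes, 89.6, 583 and 621 TPM with the TRNC value recomputed from its coverage (added after the data were seen), 35.5, 231 and 246 by FPKM, and 445, 2216 and 1673 by coverage. By coverage ALDH18A1 held 22.1% of its family and AKR1B1 42.4%, and the shares of other members and the sums of role groups by coverage were also added after the data were seen. The median CV was 8.30% by coverage, which is not scaled for depth, and ranged from 2.03% (without replicate 1) to 4.88% with a replicate left out. Unknown depth limits every gene listed at 0.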

Other observations

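Some rows outside the set carry related names. AKR7L, which adjoins AKR7A3, had 4.76, 4.53 and 4.19 TPM, above AKR7A3 in every library. The pseudogene AKR7A2P1 had 0.836, 0.593 and 0.409 TPM, AKR1C8P had at most 0.0586 TPM, and AKR1C6P and both antisense rows of ALDH1L1 were listed at 0. Of 5 relatives by function or fold, 3 reached 1 TPM in every library, with KCNAB2, a potassium channel subunit of the aldo-keto reductase fold, highest at 64.8 ± 6.76 TPM (SD, n = 3).

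The core of the antioxidant response element, the DNA motif of NRF2 (TGACNNNGC), was searched on both strands of the 31 promoters. It was found in 1, that of AKR7A2 (3.23% of the members' promoters, against 13.3% of all 35116). The 3 matches there lie 95, 156 and 167 bases before the start site. The first, with the motif in capitals, is on the minus strand of chromosome 1 (chr1:19312222-19312251).
AKR7A2: cgcgctgggcTGACCGGGCctggaggcgcc
The absence of a match elsewhere says only that these letters are not in this window. AKR1B10, named above as an NRF2 target, had no promoter sequence and was not searched. The AKR1C2 window lay 14176 bp inside the deposited row.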
